A study of Mus musculus with 12 samples.

Results

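Epcam+ cells of mouse skin carcinomas of both epidermal origins were set against normal skin epithelium, to read the change in accessible chromatin that the tumours share whatever the origin. All 3 Epcam+ tumour samples of the series stood on one side and both of its normal samples on the other, 5 of 6 samples in all, and the remaining sample, Epcam- cells of the Lgr5 tumours, entered no comparison. Both normal samples came from WT mice and are labelled for the hair follicle (HF) and the interfollicular epidermis (IFE). K14 Epcam+ came from mice with K14CreER, p53fl/fl, Rosa-YFP+/+ and a Cre-activated oncogene allele, and is labelled interfollicular epidermis. The Lgr5 Epcam+ samples, numbered 1 and 2, came from mice with Lgr5CreER and the same 3 other alleles and are labelled hair follicle. In both tumour genotypes an inducible Cre, driven in basal keratinocytes by K14 or in stem cells of the follicle by Lgr5, switches on the oncogene and a YFP reporter and deletes floxed p53. All mice were female and of mixed strain, and the labels state no age, inducing dose or time to tumour. The sort used Epcam together with CD45, CD31 and CD140a, which mark blood, endothelial and many stromal cells. Nothing in the labels says that samples came from separate animals, so p-values reflect the spread among these 5 samples alone, and that spread may be technical.

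ATAC-seq uses the Tn5 transposase to insert sequencing adapters into DNA that is not packed away in nucleosomes, and counts of inserts over a peak therefore report how accessible an enhancer or promoter is. In normal skin, the basal keratinocytes of the interfollicular epidermis feed a differentiation programme of suprabasal keratins and cornified envelope proteins, while the bulge of the hair follicle holds quiescent stem cells. Squamous carcinomas arise from either compartment. Ras proteins signal through the MAPK cascade to AP-1, a family of dimeric Fos and Jun transcription factors that bind enhancers and promoters of wound response, protease and growth factor genes. Loss of p53 removes a brake on proliferation and survival.

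Every sample had 1 single-end and 1 paired-end run, with 15896612 to 32703016 counts in peaks per run. Peaks held a share of the counts that was 21.3% to 34.0% in the runs of the normal samples and 32.8% to 51.1% in those of the tumours, so that it moved with the comparison; its part in the results was not tested. Runs of a sample were summed on chromosomes 1 to 14, and the paired-end run alone was used from chromosome 15 to X, where single-end counts of K14 Epcam+ ran low. Levels are given as CPM, the usual read counts scaled to library size, after trimmed mean of M-values (TMM) scaling, and a gene's level is the sum over the peaks nearest to it within 50 kb. Levels are not corrected for the number or length of peaks and are compared only between samples. In such bulk samples, fewer cells with an open site and a less open site in every cell cannot be told apart.

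The sort and tissue labels were first read against marker genes. Epcam itself had 99.6 CPM in HF and 82.97 in IFE, with 237 in K14 Epcam+ and 237 and 232 in Lgr5 Epcam+ (log2 change 1.37, SE 0.19, edgeR adjusted p 0.0021). Lgr5 had 236 CPM in HF and 53.2 in IFE, and the suprabasal keratin gene Krt1 had 23.5 in HF and 97.2 in IFE, so both normal samples carried the marker pattern of their labels. In the tumours Lgr5 lay between 61.0 and 80.5 CPM whatever the promoter of the Cre. The epithelial genes Krt5, Krt14, Trp63 and Cdh1 did not pass the test. Trp53 had 1 peak, at 22.4 and 23.8 CPM in HF and IFE and 19.4, 23.2 and 21.8 CPM in the tumours; the labels do not say whether it lies in the floxed part, so it does not check the deletion.

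Accessibility differed widely between tumours and normal epithelium. By edgeR's quasi-likelihood test with Benjamini-Hochberg adjustment over all features, 2250 of 18106 genes rose (12.4%) and 2022 fell (11.2%), 23.6% together, with a biological coefficient of variation of 0.223. Of 177192 peaks tested 26499 rose (15%) and 27089 fell (15.3%), 30.2% together. The median log2 change was 1.11 among the genes that rose and -1.06 among those that fell. Among all genes tested, every tumour lay above both normals in 4864 (26.9%) and below both in 5045 (27.9%). Of the genes that rose 2249 showed no overlap between the sides, as did 2015 of those that fell. A gap of at least 2-fold between the nearest tumour and the nearest normal was seen in 584 rising and 372 falling genes. The balance depends on scaling: with total counts in place of TMM the median over all genes shifted from -0.01 to -0.13, 1808 genes rose and 2742 fell, and the rising share of gene calls went from 52.7% to 39.7%. Single samples also weighed on the counts, which went down to 1127 rising and 958 falling genes without IFE, 1372 and 1077 without HF, 1626 and 1330 without K14 Epcam+, and 1355 and 912 without Lgr5 Epcam+ sample 1.

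The tumours of both origins moved together. The ratios of K14 Epcam+ over IFE and of the mean Lgr5 Epcam+ over HF use no sample in common, and across 18106 genes they had a Pearson r of 0.677 (0.724 across peaks), given as a description, since genes share libraries, depth and scaling. Of 1819 genes (10%) with a log2 ratio of at least 1 in K14 Epcam+ over IFE, 1611 (88.6%) had a ratio above 0 in Lgr5 Epcam+ over HF and 903 (49.6%) were past 1 there, against 8.36% of all genes. At the other end, 1189 genes (6.57%) had a ratio of at most -1, of which 1145 (96.3%) were below 0 and 577 (48.5%) at most -1 in Lgr5 Epcam+ over HF, against 8.19% of all genes. Read the other way, the 903 were 59.6% of the genes past 1 in Lgr5 Epcam+ over HF, and the 577 were 38.9% of those at most -1. A test of whether the tumour change differed between origins called 1 gene (0.00552%) and 1 peak (0.000564%), both at Col19a1, where the single-end runs of all 5 samples lay between 52.9 and 116 CPM and the paired-end runs of the Lgr5 Epcam+ samples stood apart. There were 901 genes and 11028 peaks at an unadjusted p under 0.05. That test has 1 residual degree of freedom, from the Lgr5 Epcam+ pair, and the labelled cell type is tied to the Cre line in the tumours.

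**Figure D1:**
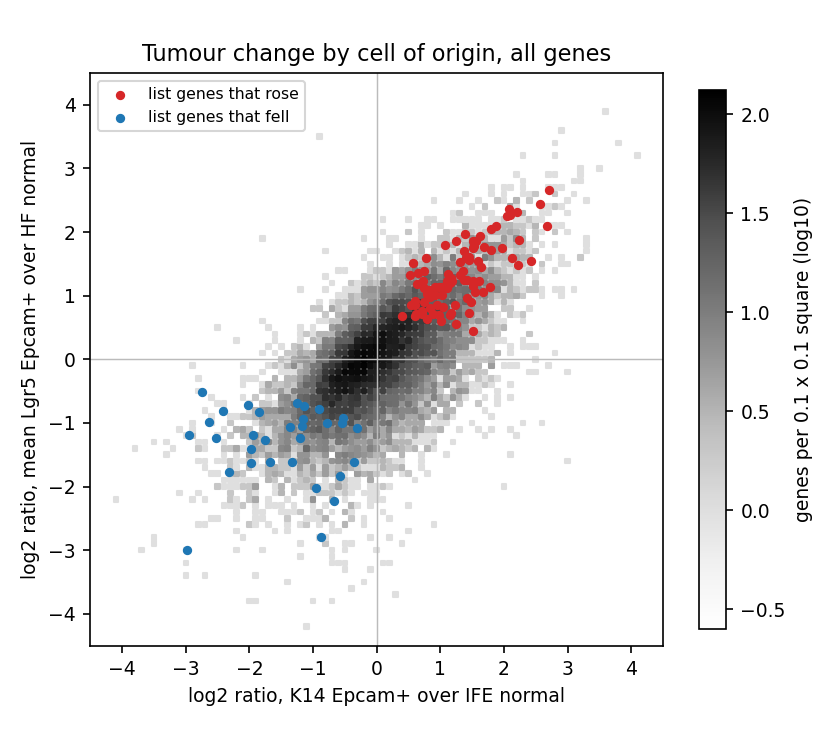
Log2 ratio of K14 Epcam+ over IFE normal (x axis) against that of the mean of 2 Lgr5 Epcam+ samples over HF normal (y axis) for 18106 genes, as grey squares shaded by the number of genes, with genes of the lists described in the text that rose (red) or fell (blue). Every red gene lies above 0 on both axes and every blue gene below 0 on both, and the cloud of all genes runs along the diagonal (Pearson r 0.677).

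The changed genes were described through 24 lists of 370 entries, chosen with earlier results of these data known and therefore given as counts with no test of a list. Of 364 entries tested 89 rose and 31 fell, to be read against the 12.4% of all genes that rose and the 11.2% that fell, and median log2 changes are set beside the median of -0.01 over all genes. The lists with the highest medians were those of matrix proteases, chemokines, transcription factors of the epithelial to mesenchymal transition (EMT), wound response and Ras-MAPK feedback, and the lowest was that of hair follicle stem cells.

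**Figure D2:**
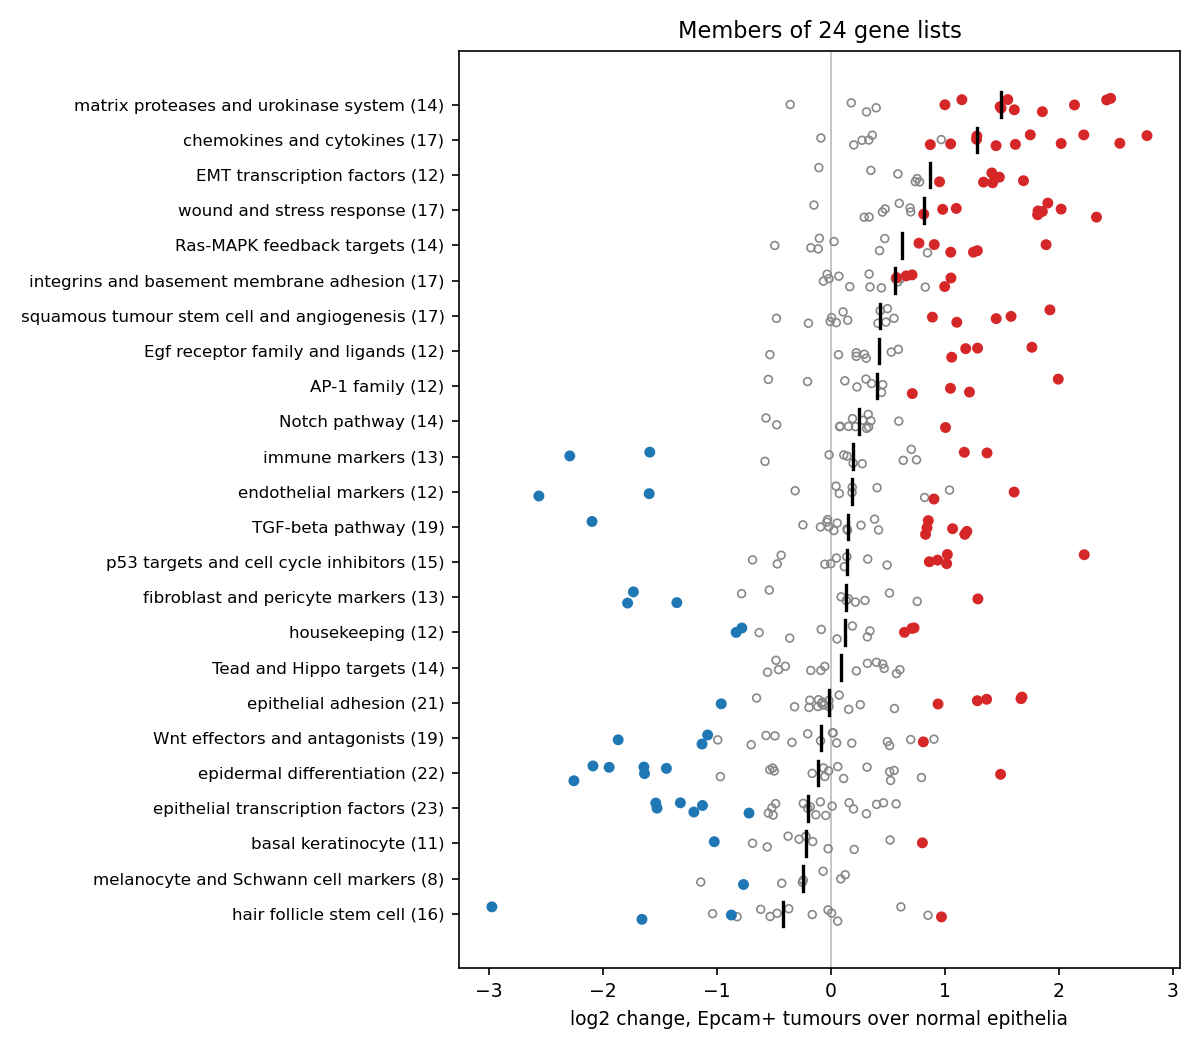
Log2 change of Epcam+ tumours over normal epithelia (x axis) for each tested member of 24 gene lists, with the number tested in brackets; filled points rose (red) or fell (blue) at an edgeR adjusted p under 0.05, open points did not pass, and black bars are list medians. Rising members stand in the upper lists, up to Tnf at 2.77, and the hair follicle stem cell list at the bottom has Krt15 at -2.97.

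The letters of the AP-1 site stood in a larger share of promoters under rising peaks than of those under falling ones. RefSeq promoter windows on GRCm38.p6 (the mm10 assembly) hold 250 bases before and 50 after a gene's start, and 13786 windows of coding genes overlapped a tested peak, 1151 of them a rising and 655 a falling one. The motif TGANTCA, where N is any base, reads the same on both strands. It covers the known AP-1 site, and a match may have any base in the middle. It stood in 150 of the 1151 windows with a rising peak (13.0%) and in 29 of the 655 with a falling peak (4.43%). It stood in 5.90% of all windows with a tested peak and in 7.04% of all 21045 windows of coding genes. Median GC content was 61.7% in windows with a rising peak, 56.7% in those with a falling peak and 61.0% in all with a tested peak. Letters of ETS factors, CCGGAA or the reverse complement, stood in 12.8% of rising and 11.8% of falling windows against 25.9% of all with a tested peak. Those of Gata factors, AGATAA or the reverse complement, stood in 4.78% of rising and 9.01% of falling windows against 6.09%. Those of Tead factors, GGAATG or the reverse complement, were in 12.7% and 15.1% against 12.2%. These shares are descriptions of letters, and no match was read as a bound site.

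**Figure D3:**
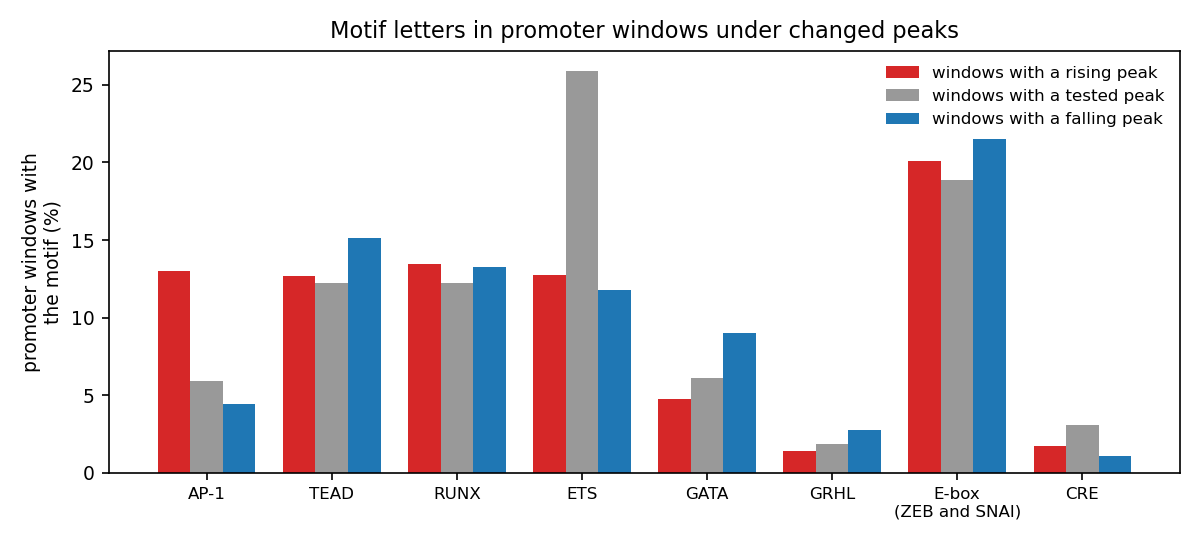
Percent of RefSeq promoter windows that hold the letters of each motif on either strand (y axis, from 0) for windows under a rising peak (red, 1151), under any tested peak (grey, 13786) and under a falling peak (blue, 655). The AP-1 bars stand at 13.0%, 5.90% and 4.43%, and the ETS bars of changed windows are lower than the grey one.

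Among genes of the lists, 52 had a rising peak over a promoter window and 11 of them held the AP-1 letters before the start, while 16 had a falling peak and 1, Nfix, held them. These counts read the bases before the start alone, whereas the shares over all windows above read whole windows. The sites of the matrix protease genes and of other rising list genes are shown as examples. They were picked after their values were seen. Each is read 5′ to 3′ on the gene's strand, on GRCm38.p6, with the AP-1 letters in capitals.
Mmp1b chr9:7388096-7388136 (- strand): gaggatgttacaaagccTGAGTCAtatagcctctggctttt
Mmp1a chr9:7464051-7464091 (+ strand): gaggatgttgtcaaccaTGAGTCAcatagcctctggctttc
Mmp10 chr9:7502262-7502302 (+ strand): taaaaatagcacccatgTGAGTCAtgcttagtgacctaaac
Mmp13 chr9:7272462-7272502 (+ strand): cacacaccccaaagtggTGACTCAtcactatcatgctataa
Plaur chr7:24462397-24462437 (+ strand): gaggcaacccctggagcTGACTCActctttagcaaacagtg
Sprr1b chr3:92438867-92438907 (- strand): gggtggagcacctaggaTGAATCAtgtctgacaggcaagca
Il1a chr2:129309973-129310001 (- strand): aaaaaggcagagaagccTGACTCAgactt
Zeb2 chr2:45110443-45110483 (- strand): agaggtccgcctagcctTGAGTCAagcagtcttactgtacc
Zeb2 chr2:45110386-45110426 (- strand): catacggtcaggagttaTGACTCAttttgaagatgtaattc
Cldn4 chr5:134947151-134947184 (- strand): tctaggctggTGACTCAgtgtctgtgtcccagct
Cldn4 chr5:134947069-134947109 (- strand): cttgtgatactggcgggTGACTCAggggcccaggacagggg
The letters begin 93 bases before the start in Mmp1b, 73 in Mmp1a, 63 in Mmp10, 35 in Mmp13, 69 in Plaur and 111 in Sprr1b. Zeb2 and Cldn4 have 2 such sites each, at 189 and 132 and at 240 and 158 bases. The match is TGAATCA in Sprr1b and TGATTCA in Nfix, whose site is not printed. The other sites printed are TGAGTCA or TGACTCA. The promoter peak of Plaur, the urokinase receptor, had 7.86 CPM in HF and 8.19 in IFE, against 51.03 in K14 Epcam+ and 72.3 and 67.2 in Lgr5 Epcam+ (log2 change 2.98, SE 0.29, edgeR adjusted p 0.000482). That of Mmp10 had 2.99 and 4.25 CPM in HF and IFE and 20.01, 15.7 and 13.5 CPM in the tumours (2.18, adjusted p 0.00351), and that of Mmp1b 2.88 and 2.93 CPM against 26.4, 23.9 and 19.3 CPM (2.995, adjusted p 0.000703). In all 3 promoters the tumours lay above both normals, as they did in 26415 of all 26499 rising peaks.

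Of 17 wound and stress genes tested 9 rose and 0 fell (median log2 change 0.82), and every tumour lay above both normals in 12, where 26.9% of all genes did so. Krt16, like Krt17 a keratin that normal epidermis makes when it is wounded, had 12.8 CPM in HF and 11.9 in IFE, against 37.6 in K14 Epcam+ and 54.3 and 47.1 in Lgr5 Epcam+ (log2 change 1.90, SE 0.23, edgeR adjusted p 0.00115). Krt17 had 45.8 and 40.4 CPM in HF and IFE and 121, 179 and 156 CPM in the tumours (log2 change 1.82, SE 0.23, edgeR adjusted p 0.00136), and all 5 of its peaks rose. In both genes the lowest tumour was more than 2-fold above the highest normal. Sprr1b, a precursor of the cornified envelope induced by stress, had 7.14 and 7.96 CPM in the normals and 35.2, 45.8 and 32.98 CPM in the tumours (log2 change 2.33, SE 0.25, edgeR adjusted p 0.000762), with 3 of 3 peaks up. Krt6a (1.86, adjusted p 0.00933) and Krt6b (2.02, adjusted p 0.0113), the partners of Krt16, also rose. They are close copies of each other, so reads could be split between them, and Krt6b did not pass without IFE. Serpinb2, a protease inhibitor of stressed keratinocytes, had a log2 change of 0.29 and the matrix gene Tnc 0.60, neither past the test. The promoter peak of Sprr1b, which holds one of the sites above, went from 1.65 and 1.57 CPM in the normals to 11.4, 18.9 and 13.2 CPM (3.17, adjusted p 0.00107), and its upstream window is given whole.
Sprr1b chr3:92438780-92439029 (- strand): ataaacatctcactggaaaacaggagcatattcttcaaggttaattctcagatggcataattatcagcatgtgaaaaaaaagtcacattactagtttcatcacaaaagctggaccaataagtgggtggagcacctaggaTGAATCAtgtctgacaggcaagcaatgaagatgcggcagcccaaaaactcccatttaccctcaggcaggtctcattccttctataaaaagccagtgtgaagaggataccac

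Of 17 chemokine and cytokine genes tested 11 rose and 0 fell (median 1.28), and 35.9% of the 195 peaks near them rose against 15% of all. Tnf, an inflammatory cytokine, had 11.02 CPM in HF and 10.6 in IFE, against 72.4 in K14 Epcam+ and 93.2 and 56.4 in Lgr5 Epcam+ (log2 change 2.77, SE 0.28, edgeR adjusted p 0.000737), and its lowest tumour was 5.12 times its highest normal. Cxcl2, a ligand of the neutrophil receptor Cxcr2, had 16.9 and 16.7 CPM in HF and IFE and 101, 115 and 76.2 CPM in the tumours (log2 change 2.54, SE 0.24, edgeR adjusted p 0.000653). Its neighbours Cxcl1 (2.02, adjusted p 0.000753, 10 of 11 peaks up) and Cxcl3 (2.22, adjusted p 0.00613) encode ligands of the same receptor. Il1a, the alarm cytokine of keratinocytes, had 49.9 and 55.8 CPM against 181, 216 and 137 CPM (log2 change 1.75, SE 0.24, edgeR adjusted p 0.00188). For these 5 genes the sides did not overlap, as in 2249 of all 2250 rising genes, and Lgr5 Epcam+ sample 2 was the lowest tumour in each. Csf1, a macrophage growth factor, did not pass (0.28). Of 13 immune markers tested 2 rose and 2 fell, shares near the 12.4% and 11.2% of all genes. The immune list summed to 213 to 270 CPM in the normals and 284 to 322 in the tumours. The part of immune cells in the chemokine result was not tested.

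Genes of matrix breakdown had the highest median of the lists, 1.49, with 10 of 14 up and 0 down. Mmp10, a stromelysin, had 14.1 and 20.6 CPM in the normals and 89.6, 65.1 and 74.5 CPM in the tumours (log2 change 2.14, SE 0.25, edgeR adjusted p 0.000947). Mmp1b, an interstitial collagenase, had 4.95 and 4.23 CPM and 29.8, 24.99 and 20.7 CPM (log2 change 2.45, SE 0.27, edgeR adjusted p 0.000878), though its coding sequence is close to that of Mmp1a. Plaur, which gathers urokinase at the cell surface, had 58.98 CPM in HF and 36.7 in IFE, against 161 in K14 Epcam+ and 193 and 165 in Lgr5 Epcam+ (log2 change 1.86, SE 0.25, edgeR adjusted p 0.00176). Mmp9, a gelatinase, rose (1.61, adjusted p 0.0134) but not without HF, and Timp1, an inhibitor of these enzymes, rose as well (2.42, adjusted p 0.00121). Mmp2, a gelatinase made mainly by fibroblasts, had 167 and 163 CPM in HF and IFE and 107, 127 and 154 CPM in the tumours and did not pass (-0.36), nor did Adamts1 (0.31). Mmp10 and Mmp1b lie on chromosome 9 beside Mmp1a and Mmp13. The promoter sites printed for these genes stand between chr9:7272462 and chr9:7502302, so their changes are not separate in place. The median peak of the whole chromosome was lower in the tumours, but that median does not describe this short stretch. The part of the shared place in these calls was not tested.

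Of 12 genes of the Egf receptor family and its ligands 4 rose, all ligands, and 0 fell (median 0.42). Ereg, epiregulin, had 71.8 CPM in HF and 84.7 in IFE, against 222 in K14 Epcam+ and 344 and 233 in Lgr5 Epcam+ (log2 change 1.76, SE 0.25, edgeR adjusted p 0.00214), with 11 of 16 peaks up. Nrg1, a ligand of Erbb3 and Erbb4, had 362 and 336 CPM in HF and IFE and 728, 935 and 892 CPM in the tumours (log2 change 1.29, SE 0.20, edgeR adjusted p 0.00279). With 48 of its 116 peaks up and 1 down, Nrg1 had more rising peaks than any other gene. Hbegf (1.18, adjusted p 0.00324) and Areg (1.06, adjusted p 0.0105) rose, Areg not without HF. Egfr had 374 and 389 CPM against 388, 393 and 419 CPM (0.07, adjusted p 0.809), and 7 of its 44 peaks rose and 10 fell.

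Of 14 feedback genes of the Ras-MAPK cascade 6 rose and 0 fell (median 0.62). Phlda1 had 94.3 and 68.7 CPM in the normals and 271, 313 and 321 CPM in the tumours (log2 change 1.89, SE 0.22, edgeR adjusted p 0.00106), with 9 of 12 peaks up. The phosphatase genes Dusp6, which switches off Erk, and Dusp4 rose by 1.25 and 1.29 on the log2 scale (adjusted p 0.00624 and 0.0047), while Dusp5 did not pass (0.85); Dusp6 did not pass with peaks within 10 kb. Spred3 and Ier3 rose by 1.05 and 0.91, and both lost the call without IFE or without Lgr5 Epcam+ sample 1, Spred3 also without K14 Epcam+. Within the AP-1 family 4 of 12 genes rose and 0 fell (median 0.40). Fosl1, the Fos member most tied to transformation, had 17.5 CPM in HF and 21.1 in IFE, against 74.2 in K14 Epcam+ and 104 and 52.4 in Lgr5 Epcam+ (log2 change 1.996, SE 0.31, edgeR adjusted p 0.00308). All 4 of its peaks rose, and that at chr19:5444523-5445771, outside the gene, went from 1.52 and 0.714 CPM in HF and IFE to 20.97, 35.9 and 14.4 CPM (4.40, adjusted p 0.000956). Batf rose by 1.22 and Batf3 by 1.05, and Atf3 by 0.72, Atf3 and Batf3 not without HF, K14 Epcam+ or Lgr5 Epcam+ sample 1, and Atf3 not under loess scaling or window centring. Fos (0.23) and Fosl2 (-0.20) did not pass.

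Of 17 genes of tumour stem cells and vessel growth 5 rose and 0 fell (median 0.43). Vegfa, the main growth factor of blood vessels, had 88.9 CPM in HF and 84.1 in IFE, against 230.3 in K14 Epcam+ and 342 and 204 in Lgr5 Epcam+ (log2 change 1.58, SE 0.26, edgeR adjusted p 0.00349), with 12 of 22 peaks up. The peak at chr17:46069686-46072446, outside the gene, went from 9.9995 and 9.29 CPM in the normals to 41.3, 79.02 and 53.6 CPM (2.59, adjusted p 0.00131). Pthlh, a hormone secreted by squamous carcinomas, had 92.6 and 67.3 CPM against 365, 283 and 262 CPM (log2 change 1.92, SE 0.24, edgeR adjusted p 0.00133). Pdpn, a mucin-like protein of invading fronts, rose by 1.45 (adjusted p 0.00273) and the transcription factor gene Pitx1 by 1.11 (adjusted p 0.00848). Flt1, a Vegf receptor, rose by 0.89 but not without HF, K14 Epcam+ or Lgr5 Epcam+ sample 1, nor with samples centred in 10 Mb windows. The glucose transporter gene Slc2a1 did not pass (0.48).

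Of 12 EMT transcription factor genes 6 rose and 0 fell in these Epcam+ cells (median 0.87), where 12.4% of all genes rose. Every tumour lay above both normals in 10 of the 12, against 26.9% of all genes. Snai1, a repressor of Cdh1, had 56.9 CPM in HF and 56.6 in IFE, against 136 in K14 Epcam+ and 199.9 and 214 in Lgr5 Epcam+ (log2 change 1.69, SE 0.25, edgeR adjusted p 0.00227). Zeb2, a repressor of the same class, had 63.1 and 50.9 CPM in HF and IFE and 156, 133 and 167 CPM in the tumours (log2 change 1.41, SE 0.21, edgeR adjusted p 0.00266), and Prrx1 36.5 and 28.1 CPM against 81.3, 92.8 and 71.3 CPM (log2 change 1.34, SE 0.21, edgeR adjusted p 0.00326). Twist1 and Twist2 rose by 1.42 and 1.48 (adjusted p 0.00443 and 0.00428). Hmga2 did not pass (0.76), and HF stood near the tumours there, at 222 CPM against 111 in IFE and 267 to 294 in the tumours. Cdh1, the target of these repressors, had 281 and 336 CPM in HF and IFE and 299.5, 338 and 278 CPM in the tumours, with a log2 change of -0.02 (SE 0.19). Vim, a filament gene of mesenchymal cells, rose (log2 change 1.29, SE 0.21, edgeR adjusted p 0.00388), from 44.3 and 38.6 CPM to 86.8, 97.4 and 120.03 CPM. The part of other cells in these values was not tested; of 13 fibroblast and pericyte markers Vim alone rose and 3 fell (Col1a2, Fap and Thy1), and Pdgfra, which encodes CD140a, had 70.1 and 66.8 CPM against 83.3, 84.998 and 84.7 CPM (0.30, not called).

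Of 19 TGF-beta pathway genes 6 rose and 1 fell, with a median of 0.15 that turned negative under loess scaling (-0.03). Smad7, the feedback inhibitor of the pathway, rose (1.19, adjusted p 0.00762), as did Ltbp1, which tethers the latent ligand in the matrix (1.18, adjusted p 0.00877). The ligand gene Tgfb1 (1.07, adjusted p 0.0125) and the repressor gene Skil (0.86, adjusted p 0.0155) rose with wider spread, and both lost the call without HF or without Lgr5 Epcam+ sample 1, Skil also without IFE. Ltbp1 did not pass without IFE. Bmp4 fell: it had 60.8 CPM in HF and 165 in IFE, against 28.1 in K14 Epcam+ and 25.5 and 25.7 in Lgr5 Epcam+ (log2 change -2.09, SE 0.34, edgeR adjusted p 0.00379), with 8 of 13 peaks down. The peak over its start, chr14:46389895-46391498, fell from 8.99 and 47.4 CPM to 3.29, 2.77 and 2.94 CPM (-3.23, adjusted p 0.00269), and IFE stood well above HF. Without IFE the change of the gene was -1.19, still past the test.

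Of 17 integrin and basement membrane genes 5 rose and 0 fell (median 0.57). Cd44, a hyaluronan receptor, had 34 of 59 peaks up and 2 down, and its sum rose from 422 and 312 CPM in HF and IFE to 731, 932 and 626 CPM (log2 change 1.05, SE 0.23, edgeR adjusted p 0.012), though not without IFE. Itgb1, the common beta subunit of integrins, had 166 and 157 CPM against 297, 345 and 326 CPM (log2 change 0.9998, SE 0.19, edgeR adjusted p 0.00655). Itga2 and Cd151 rose by 0.71 and 0.58, each of them losing the call without HF, IFE, K14 Epcam+ or Lgr5 Epcam+ sample 1. Cd151 kept its call in 6 of 18 settings, and lost it also with total-count scaling, window centring, paired-end runs alone, both runs summed on every chromosome, the cell type of origin as a block and without Lgr5 Epcam+ sample 2. Lama3 did not pass (0.61). Among 21 genes of epithelial junctions 5 rose and 1 fell, with a median of -0.02 (0.07 with samples centred in 10 Mb windows). Cldn4, a tight junction claudin, had 52.1 CPM in HF and 70.4 in IFE, against 204 in K14 Epcam+ and 259 and 125 in Lgr5 Epcam+ (log2 change 1.68, SE 0.32, edgeR adjusted p 0.00682), and the desmosomal cadherin gene Dsc2 27.1 and 30.1 CPM against 86.6, 84.8 and 101 CPM (log2 change 1.67, SE 0.21, edgeR adjusted p 0.00117). Cldn7 rose (1.29) but not without IFE, and Cldn1, the main claudin of the epidermal barrier, fell (-0.96, adjusted p 0.00782), also not without IFE. Desmoplakin, Dsp, did not pass (-0.32).

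**Figure D4:**
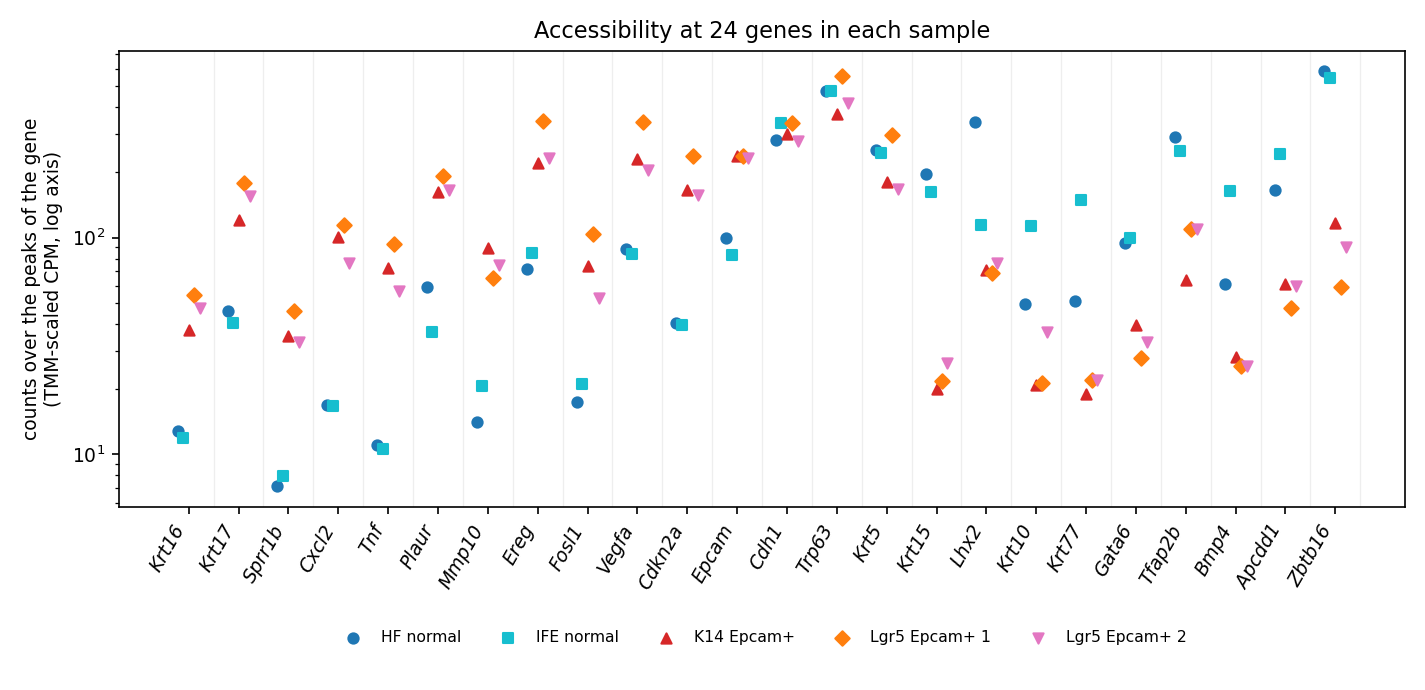
Accessibility as TMM-scaled CPM summed over the peaks of each gene (y axis, log scale) for 24 named genes (x axis) in HF normal, IFE normal, K14 Epcam+ and Lgr5 Epcam+ samples 1 and 2, 1 point per sample. From Krt16 to Epcam the 3 tumour points lie above both normal points, from Krt15 to Zbtb16 below them, and at Cdh1, Trp63 and Krt5 they mix.

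Of 16 hair follicle stem cell genes 3 fell and 1 rose, where 11.2% of all genes fell and 12.4% rose, with a median of -0.42 that was 0.11 without HF. Krt15, a keratin of the bulge that also marks basal epidermis, had 196 CPM in HF and 162 in IFE, against 20.1 in K14 Epcam+ and 21.8 and 26.5 in Lgr5 Epcam+ (log2 change -2.97, SE 0.21, edgeR adjusted p 0.000608), and all 5 of its peaks fell. The highest tumour was 0.164 of the lowest normal. The peak at chr11:100129594-100130852, within 1 kb of a gene end, fell from 64.8 and 61.4 CPM in HF and IFE to 1.49, 1.54 and 2.11 CPM (-5.20, adjusted p 0.000482). Lhx2, a regulator of stem cell quiescence, had 339.8 CPM in HF and 114 in IFE, against 71.2 in K14 Epcam+ and 68.4 and 76.5 in Lgr5 Epcam+ (log2 change -1.66, SE 0.37, edgeR adjusted p 0.0123), and Tcf7l1 fell too (-0.87, adjusted p 0.0166); both lost the call without HF, without K14 Epcam+ or without Lgr5 Epcam+ sample 1, and the change of Lhx2 was -0.65 without HF. Lgr5 itself did not pass (-1.04, adjusted p 0.136): IFE was lower than the tumours, and without HF the change was 0.42. Nfatc1 (-0.82) and Nfib (-0.47) did not pass, although every tumour lay below both normals in each. Runx1, which drives follicle stem cells into growth, rose (0.97, adjusted p 0.0348), from 477 and 269.6 CPM in HF and IFE to 608, 904 and 684 CPM, but lost the call under loess scaling, without IFE, without K14 Epcam+ and without either Lgr5 Epcam+ sample, with a change of 0.62 without IFE.

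Of 22 epidermal differentiation genes 6 fell and 1 rose, where 11.2% of all genes fell and 12.4% rose, with a median of -0.11 that was 0.11 without IFE, the riser being the protease gene Klk7 (1.49), named here after its value was seen. Krt77, a suprabasal keratin, had 50.99 CPM in HF and 149.6 in IFE, against 19.02 in K14 Epcam+ and 22.1 and 22.02 in Lgr5 Epcam+ (log2 change -2.25, SE 0.37, edgeR adjusted p 0.00414). Krt10 had 49.4 and 113 CPM in HF and IFE and 20.9, 21.3 and 36.5 CPM in the tumours (log2 change -1.63, SE 0.36, edgeR adjusted p 0.0115), and Krt1 23.5 and 97.2 CPM against 14.002, 13.8 and 19.4 CPM (log2 change -1.94, SE 0.48, edgeR adjusted p 0.0182). For all 3 keratins IFE was the highest sample and the tumours lay below HF as well. Without IFE the changes were -1.28 for Krt77, -0.91 for Krt10 and -0.58 for Krt1, and Krt1 and Krt10 lost the call, as they did without K14 Epcam+ or without Lgr5 Epcam+ sample 1. Dsg1a, a desmosomal cadherin of upper layers, had 66.7 and 105 CPM against 20.6, 13.8 and 26.4 CPM (log2 change -2.09, SE 0.30, edgeR adjusted p 0.00249), and Klk5, a kallikrein protease of the outer layers, fell by 1.64 on the log2 scale (adjusted p 0.00377). The promoter peak of Krt10 at chr11:99388729-99389750 went from 3.74 and 15.01 CPM in HF and IFE to 1.25, 0.756 and 0.779 CPM (-3.33, adjusted p 0.00227). The bases before its start on GRCm38.p6 are printed because this promoter had one of the 4 deepest falls among list genes; the AP-1 letters are not in them.
Krt10 chr11:99389365-99389614 (- strand): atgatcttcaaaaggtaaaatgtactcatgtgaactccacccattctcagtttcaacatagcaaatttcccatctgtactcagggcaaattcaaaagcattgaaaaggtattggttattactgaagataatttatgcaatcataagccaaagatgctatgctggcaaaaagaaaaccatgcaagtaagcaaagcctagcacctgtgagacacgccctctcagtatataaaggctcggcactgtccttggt

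Of 23 transcription factor genes of normal epidermis and its appendages 6 fell and 0 rose (median -0.20), where 11.2% of all genes fell and 12.4% rose. Of their 629 peaks 31.8% fell and 6.68% rose, against 15.3% and 15% of all peaks. Gata6, a factor of the upper follicle and sebaceous duct, had 94.3 CPM in HF and 99.9 in IFE, against 39.6 in K14 Epcam+ and 27.9 and 33.1 in Lgr5 Epcam+ (log2 change -1.53, SE 0.21, edgeR adjusted p 0.00182). Tfap2b had 291 and 251 CPM in HF and IFE and 63.7, 109 and 110.01 CPM in the tumours (log2 change -1.52, SE 0.26, edgeR adjusted p 0.00416), with 15 of 18 peaks down. Gata3, a factor of the inner root sheath and of epidermal barrier genes, had 293 and 439 CPM against 194, 145 and 138 CPM (log2 change -1.20, SE 0.24, edgeR adjusted p 0.00773), and lost the call without IFE. Nfix fell (-1.12, adjusted p 0.00835), as did the nuclear receptor gene Rora (-1.32, adjusted p 0.00672), where 47 of 100 peaks fell and 0 rose. Rora lies on chromosome 9, and 34 of its peaks fell when samples were centred in 10 Mb windows. Trp63, the master factor of stratified epithelium, had 475 and 476 CPM in HF and IFE and 369, 554 and 416 CPM in the tumours (-0.09, adjusted p 0.793); its sum did not pass while 22 of its 67 peaks fell and 5 rose. Nfia did not pass either (-0.24).

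Of 19 Wnt pathway genes tested 3 fell and 1 rose, where 11.2% of all genes fell and 12.4% rose, with a median of -0.09 that was 0.03 without HF. Apcdd1, a Wnt antagonist at the membrane, had 165 CPM in HF and 244 in IFE, against 61.4 in K14 Epcam+ and 47.3 and 59.9 in Lgr5 Epcam+ (log2 change -1.86, SE 0.22, edgeR adjusted p 0.00106), with 18 of 25 peaks down. The feedback inhibitor gene Nkd1 (-1.13, adjusted p 0.0367) and the ligand gene Wnt3 (-1.08, adjusted p 0.0141) fell. Nkd1 lost the call under loess scaling, window centring and without HF (change -0.26), K14 Epcam+ or either Lgr5 Epcam+ sample, and Wnt3 without IFE (-0.59) or Lgr5 Epcam+ sample 1. Lef1, a nuclear partner of beta-catenin, rose (0.81, adjusted p 0.0263), but not with peaks within 10 kb or without IFE, K14 Epcam+ or Lgr5 Epcam+ sample 1. Of 14 Notch genes Hes1 rose (0.9996, adjusted p 0.0186), with 11 of 25 peaks up, and lost the call with peaks within 10 kb and without HF, IFE or Lgr5 Epcam+ sample 1; the ligand gene Jag1 did not pass (0.33), and 0 fell. Of 14 Tead and Hippo genes 0 passed edgeR's test (median 0.09, and -0.03 with total counts), 4 had an unadjusted p under 0.05 and DESeq2 called 1. Of the 14 genes, Tead1 (0.46, edgeR adjusted p 0.108) and Wwtr1 (0.40, edgeR adjusted p 0.188) were called in no setting run.

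Of 11 basal keratinocyte genes 1 rose and 1 fell (median -0.22), shares near those of all genes, 12.4% and 11.2%. Krt5 had 252 and 246 CPM in HF and IFE and 180.4, 296 and 167 CPM in the tumours (-0.22, SE 0.26), and 0 of its 8 peaks changed. Krt14 had 146 and 158 CPM against 181, 232 and 239.98 CPM (0.52, adjusted p 0.0925), and 4 of its 11 peaks rose. Fgfr3 fell (-1.02, adjusted p 0.0107), and Col7a1, the collagen of anchoring fibrils, rose (0.80, adjusted p 0.0249) but not with total-count scaling or without HF, IFE, K14 Epcam+ or Lgr5 Epcam+ sample 1.

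Of 15 p53 targets and cell cycle inhibitors 5 rose and 0 fell in these cells with floxed p53 (median 0.14). Cdkn2a, which encodes the tumour suppressors p16 and p19Arf, had 40.4 CPM in HF and 39.6 in IFE, against 165 in K14 Epcam+ and 239 and 157 in Lgr5 Epcam+ (log2 change 2.22, SE 0.25, edgeR adjusted p 0.000878), and 8 of 15 peaks rose. The peak at chr4:89294270-89295439, at a gene end, went from 4.29 and 6.36 CPM in HF and IFE to 23.9, 39.6 and 29.04 CPM (2.53, adjusted p 0.0013), and that at chr4:89234528-89235583, outside the gene, from 2.13 and 4.43 CPM to 37.6, 56.4 and 43.5 CPM (3.80, adjusted p 0.000517). Its neighbour Cdkn2b, which encodes p15, rose (0.94, adjusted p 0.021), but not without HF or Lgr5 Epcam+ sample 1. Gadd45a (1.02, adjusted p 0.0112), Pmaip1 (1.02, adjusted p 0.0142) and Bax (0.87, adjusted p 0.0138), stress and death genes that p53 can switch on, rose, Pmaip1 not without HF or with peaks within 10 kb, and Bax not without IFE. Perp, a desmosomal p53 target, had 441 and 453 CPM in the normals and 204, 327 and 303 CPM in the tumours and did not pass (-0.69, adjusted p 0.0527).

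MicroRNA genes were read through the peaks within 10 kb of their hairpins. Of 2508 peaks near 821 hairpins 14.1% rose and 10.5% fell. A set of 22 microRNAs of skin and carcinoma was chosen with results of these data known, and 20 matched a hairpin of RefSeq with a tested peak. MiR-21 and miR-31, which carcinomas are known to make in excess, had the most rising peaks in the set, and the miR-200 family, which represses Zeb factors, was taken as the epithelial counterpart. Their mature sequences are shown on GRCm38.p6 with the seed, bases 2 to 8, in capitals.
miR-21a-5p chr11:86584120-86584141 (- strand): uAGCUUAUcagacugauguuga
miR-31-5p chr4:88910614-88910635 (- strand): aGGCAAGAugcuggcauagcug
miR-200b-3p chr4:156055685-156055706 (- strand): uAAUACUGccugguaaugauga
miR-200c-3p chr6:124718324-124718346 (- strand): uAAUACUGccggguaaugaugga
miR-200a-3p chr4:156054911-156054932 (- strand): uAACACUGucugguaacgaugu
miR-141-3p chr6:124717917-124717938 (- strand): uAACACUGucugguaaagaugg
MiR-200b and miR-200c share the seed AAUACUG, and miR-200a and miR-141 share AACACUG. All 9 peaks near Mir21a rose, by 1.33 to 4.03 on the log2 scale. That at chr11:86581998-86583063 had 2.54 CPM in HF and 2.22 in IFE, against 36.99 in K14 Epcam+ and 43.5 and 36.3 in Lgr5 Epcam+ (log2 change 4.03, SE 0.34, edgeR adjusted p 0.000482). Near Mir31 9 of 10 peaks rose, and all 10 had a log2 change between 0.87 and 2.98. The one at chr4:88911262-88913331 went from 2.44 and 2.54 CPM in HF and IFE to 13.2, 18.7 and 10.8 CPM (2.52, adjusted p 0.00247). At both of these peaks all tumours lay above both normals, as in 99.7% of all rising peaks. Of 6 peaks near Mir200a and Mir200b 0 changed, with log2 changes from -0.54 to 0.74, and of 5 near Mir200c and Mir141 0 changed, from -0.69 to 0.72. The most open of these 11, chr4:156059094-156060200, had 75.3 and 78.1 CPM against 45.6, 60.2 and 52.8 CPM (-0.54, adjusted p 0.0946). Near Mir203, a microRNA of differentiation, 0 of 5 peaks changed. Counts near Mir21a stayed at 8 or 9 of 9 and those near Mir31 at 6 to 10 of 10 in the settings run. Coding genes assigned to peaks there were Tubd1 and Vmp1 near Mir21a and Ifne near Mir31. Near Mir200a and Mir200b it was Ttll10, and near Mir200c and Mir141 Emg1, Phb2 and Ptpn6. These peaks therefore cannot be given to the microRNAs alone.

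**Figure D5:**
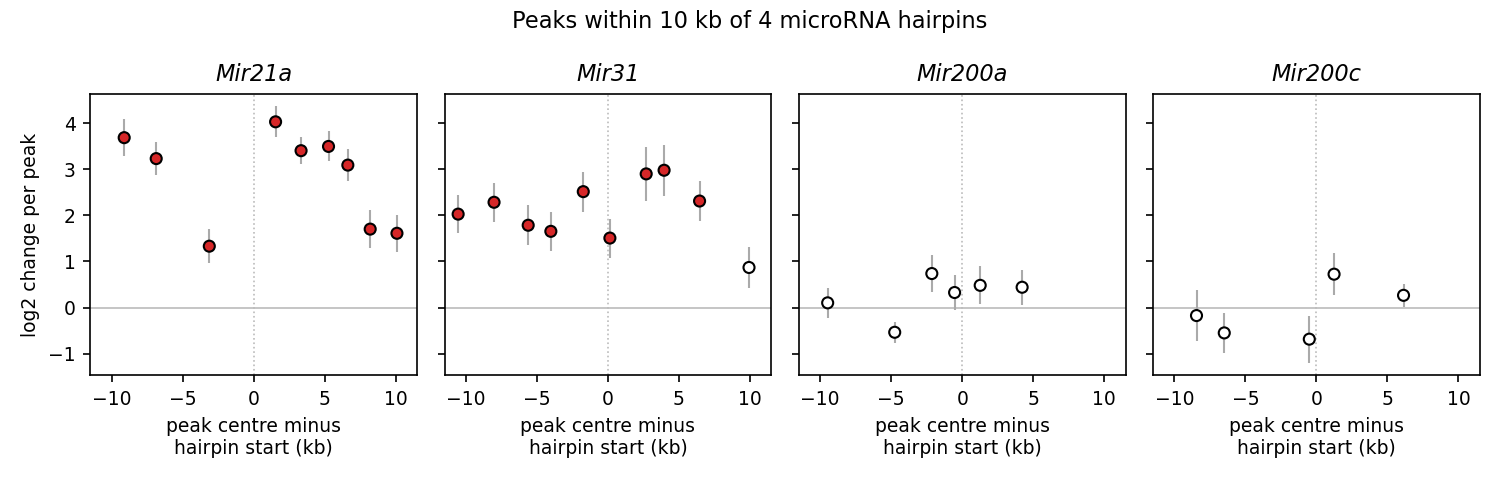
Log2 change of Epcam+ tumours over normal epithelia, with its standard error (y axis), for peaks within 10 kb of 4 microRNA hairpins, against the distance of the peak's centre from the hairpin's start along the strand (x axis, kb); red points passed at an edgeR adjusted p under 0.05. Peaks of Mir21a reach 4.03 and those of Mir31 2.98, while those of Mir200a and Mir200c scatter about 0.

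Outside the lists, the largest changes among genes of above-median level belonged to loci of many kinds. The steepest rises were at Olfr432, an odorant receptor gene (log2 change 3.40, SE 0.29, edgeR adjusted p 0.000629), Pla1a, a phospholipase gene (log2 change 3.06, SE 0.34, edgeR adjusted p 0.000895), and the interferon-inducible gene Ifi204 (log2 change 2.89, SE 0.28, edgeR adjusted p 0.000703). Pla1a had 28.7 and 16.8 CPM in HF and IFE and 159.6, 257 and 151 CPM in the tumours, with 8 of 13 peaks up. Olfr432 and Ifi204 belong to families of similar copies, so reads could be split, and the level of a locus reports open sites near the gene and not its transcription. The steepest fall was at Peg3, an imprinted zinc finger gene with 1 peak, from 144 and 112 CPM to 13.4, 11.1 and 16.4 CPM (log2 change -3.23, SE 0.23, edgeR adjusted p 0.000608). Frem2, a basement membrane gene of skin appendages, fell from 151 and 145 CPM to 30.8, 23.8 and 29.5 CPM (log2 change -2.40, SE 0.19, edgeR adjusted p 0.000629), with 14 of 17 peaks down. The epidermal transglutaminase gene Tgm5 fell (-2.57, adjusted p 0.00126), with 10 of 10 peaks down.

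Zbtb16, a zinc finger factor also known as Plzf, had 67 peaks, of which 66 fell and 0 rose. Its sum went from 583 CPM in HF and 542 in IFE to 117 in K14 Epcam+ and 59.1 and 90.1 in Lgr5 Epcam+ (log2 change -2.66, SE 0.27, edgeR adjusted p 0.000747). It lies on chromosome 9, whose median peak had a log2 change of -0.41, but 65 of its peaks still fell with samples centred in 10 Mb windows. Other loci with many falling peaks were Tenm2 (38 of 73), Foxn3 (41 of 91) and Fhit (36 of 72), whose sums fell by 0.87, 0.79 and 0.97 on the log2 scale, that of Foxn3 not without IFE and those of Tenm2 and Fhit not with window centring or without HF, K14 Epcam+ or Lgr5 Epcam+ sample 1. Macrod2 had 34 rising and 34 falling peaks of 162. Among single peaks, one inside Mtss1 at chr15:58997660-58998678 rose from 1.24 and 1.64 CPM in HF and IFE to 39.1, 68.4 and 41.1 CPM (5.10, adjusted p 0.000482). One inside Kank1 at chr19:25336618-25337676 fell from 91.4 and 51.7 CPM to 1.49, 1.70 and 1.47 CPM (-5.52, adjusted p 0.000482), and one inside Adgrv1 at chr13:81356725-81357780 from 32.2 and 39.6 CPM to 1.34, 0.802 and 1.70 CPM (-4.81, adjusted p 0.000482). At these peaks both normals stood far from all 3 tumours. In the falling peaks inside Sema5a and Grik1, by contrast, HF had 55.3 and 58.7 CPM and IFE 3.71 and 6.36, so the size of those changes rests on HF.

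Changed peaks lay away from gene ends more than peaks at large. Within 1 kb of a gene end stood 11.9% of all tested peaks, 8.24% of those that rose and 6.32% of those that fell. Shares of 17.2% of all, 19.4% of rising and 21.6% of falling peaks were more than 50 kb from a coding gene. By chromosome, the share of rising peaks ran from 9.98% on chromosome 9 to 17.5% on chromosome 5, and that of falling peaks from 11.2% on chromosome 5 to 23.9% on chromosome 9. The lower median on chromosome 9 came with a sample pattern: relative to the mean of the 5 samples its median peak stood at -0.27 and -0.28 in the Lgr5 Epcam+ samples, 0.05 in K14 Epcam+, 0.17 in HF and 0.21 in IFE. The part of the chromosome 9 pattern in the calls there was not tested beyond the window centring given above. Lgr5 Epcam+ samples 1 and 2 stood apart on other chromosomes. Their median peaks were at 0.15 and -0.42 on chromosome 19, which holds Fosl1 and Kank1. They were at 0.16 and -0.13 on chromosome 15 and at 0.20 and -0.18 on chromosome 16. The part of these splits in single calls was not tested beyond window centring.

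Called markers of the cell types that the sort could have let through went both ways in the immune, endothelial, and fibroblast and pericyte lists. By list sum, every tumour lay above both normals for immune markers (284 to 322 against 213 to 270 CPM). Every tumour lay below both for melanocyte and Schwann cell markers. The sums of the endothelial list and of the fibroblast and pericyte list overlapped between the sides. The endothelial list had 2 of 12 up (Tie1 1.61, Cdh5 0.91) and 2 down (Tek -1.59, Sox17 -2.56), and Pecam1, which encodes CD31, had 134 and 173 CPM in HF and IFE against 196, 209 and 206 CPM in the tumours (0.41, not called). The list summed to 583 to 628 CPM in the normals and 603 to 788 in the tumours. Fibroblast and pericyte markers summed to 536 to 660 and 648 to 714 CPM, and melanocyte and Schwann cell markers to 357 to 478 and 275 to 328, with 1 of 8 down (Mitf, -0.77, and -0.38 without HF, not passing). Among immune markers Ptprc, which encodes CD45, rose from 47.9 and 37.7 CPM to 102, 102 and 128 CPM (log2 change 1.37, SE 0.22, edgeR adjusted p 0.0031), with 5 of 16 peaks up, and Cd68 rose by 1.17, while Adgre1 fell (-2.29). Without IFE the change of Adgre1 was -0.92 and did not pass, and without HF those of Sox17 and Col1a2 were -0.99 and -0.71 and did not pass. Tie1, Sox17, Cdh5 and Col1a2 also lost the call without other samples, as did Fap without IFE, and Cdh5 lost it with total-count scaling and window centring. Stfa1, a wound response gene, and the markers Cd8a, Ms4a1, Fcer1g, Tyr and Ednrb had no tested peak. Among 12 housekeeping genes 3 rose, Actb (0.73) and Gapdh (0.71) among them, and 2 fell, Ppia (-0.83) among them. Of all genes 12.4% rose and 11.2% fell. Near the housekeeping genes 27.5% of 80 peaks rose and 8.75% fell, against 15% and 15.3% of all peaks. A rising share above that of all peaks was thus not limited to the tumour lists. Of the 5 called housekeeping genes Ppia alone kept its call without each sample.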

How the data were processed

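ATAC-seq was measured on 6 samples in 12 runs, of which 10 runs of 5 samples were used. Per the submitters' processing notes the authors used Bowtie2, HOMER, bedtools and HTSeq on mm10, with versions not given in the sources used here, and deposited raw read counts per peak for each run and 1 peak list shared by all samples. HTSeq's count of reads outside peaks was left out of library sizes. Of 177240 deposited peaks 34 on chromosome Y were dropped, leaving a median width of 1097 bp. Single-end and paired-end counts of a sample were summed on chromosomes 1 to 14, and paired-end counts alone were used from 15 to X. Each peak went to the nearest protein-coding gene of RefSeq GRCm38.p6 within 50 kb, which gave 82.8% of peaks a gene and 18108 of 21631 genes a peak.

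Sums per gene and counts per peak were tested with edgeR 4.0.16 in R 4.3.3: filterByExpr at a minimum count of 10, TMM factors from chromosomes 1 to 14 as offsets, and the robust quasi-likelihood F test of 3 tumours against 2 normals with 3 residual degrees of freedom, Benjamini-Hochberg adjustment over all features and a threshold of 0.05. A gene's log2 change is the mean of the tumours over the mean of the normals on the fitted scale, and ratios by origin use log2(CPM + 0.5). Tested on simulated counts of 18106 genes, the fit recovered 37% of 100 genes changed by log2 1 and all 100 changed by log2 2. There were 4 false calls. In the data 23.6% of genes passed, a far larger share than was changed in those counts. The recovery and the false calls therefore describe those counts alone, and whether they hold for the 5 samples was not tested.

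Named genes were up to 5 passing members per list with the largest change, up to 2 that did not pass with the highest level, a fixed set of markers, and over all genes the 10 largest changes per direction among those of above-median level whose sides did not overlap in summed or single runs, and the 5 genes per direction with the most changed peaks; single peaks and promoters followed the same kind of rule. Promoters on chromosome 18 were left out of the promoter ranking. The members of the comparison, the lists and the tests were chosen with earlier results of these data known. Alternatives covered scaling, runs, filter, tool (DESeq2 1.42.0), model, threshold, distance and leaving out each sample. Results for a few genes that the rule names are not reported here.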

Additional observations from a re-analysis of the deposited data

Results flagged for a closer look

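Col19a1, a collagen gene, was the 1 gene whose tumour change differed between the origins by a test of the difference (log2 4.43, SE 0.48, edgeR adjusted p 0.0366), higher in the Lgr5 Epcam+ samples. The Lgr5 Epcam+ samples had 1219.9 and 1540.02 CPM, K14 Epcam+ 99.7, HF 119 and IFE 186. Lgr5 Epcam-, which entered no comparison, had 1484.9 CPM. In the single-end runs all 5 samples lay between 52.9 and 116 CPM, whereas the paired-end runs of the Lgr5 Epcam+ samples had 2300 and 2963, so the difference was carried by 1 kind of run. Its peak at chr1:24612392-24613443 was also the 1 peak that differed (5.92). That peak had 1300.8 and 1550.5 CPM in the Lgr5 Epcam+ samples, so the level of the gene there rested mostly on this peak. The cause was not tested.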

How the results depend on the processing

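With single-end runs alone 931 genes rose and 794 fell, and a test for a log2 change beyond 0.5 gave 1021 and 719; the list entries that rose and fell were 49 and 18, and 53 and 20. Total-count scaling gave 47 falling entries. Leaving out each sample gave 1127 (without IFE) to 2204 rising and 912 (without Lgr5 Epcam+ sample 1) to 1717 falling genes, 15544 to 26982 rising and 11153 (both without that sample) to 22184 falling peaks, and 17 (without it) to 30 falling entries. Of 103 named genes that passed, 49 kept their call in every setting run where they were tested, 85 in the settings of scaling, runs, tool, filter, model and distance other than single-end runs and the higher threshold, and 61 without each sample; 0 changed sign. With both runs summed on every chromosome Actb, Cd151, Hes1, Ier3, Mitf, Pmaip1 and Runx1 lost the call, as did Actb, Adgre1, Dusp6, Hes1, Lef1, Mitf and Pmaip1 within 10 kb. Among named genes that did not pass, Cdh1 turned to 0.0052 with single-end runs, 0.0040 with the cell type of origin as a block and 0.057 within 10 kb, and ranged from -0.12 to 0.13 over left-out samples. Egfr was -0.048 with total counts, -0.28 with loess scaling and -0.040 within 10 kb. Under loess scaling Fos was -0.11 and Macrod2 -0.17. Some named genes that did not pass gained a call elsewhere. DESeq2 called Dusp5, Hmga2, Krt14, Lama3, Nfatc1 and Perp. Total-count scaling called Nfatc1, Nfib and Perp, and loess scaling Dsp, Nfatc1, Nfia, Nfib and Perp. Lgr5 ranged from -1.73 to 0.42 and Trp63 from -0.30 to 0.025 over left-out samples. With gene ends at 2 kb and a distance of 10 kb, gene ends held 15.9% of all, 12.2% of rising and 9.44% of falling peaks, and 32.2%, 36.8% and 36.2% lay farther. The cause was not tested. No paired analysis was possible because the labels give a number to 1 of the 5 samples alone; with the cell type of origin as a block 2050 genes rose and 1786 fell. Peaks at a few CPM in 1 side have the least precise changes.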
